A study of Mus musculus with 19 samples.

Results

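Noncoding small nucleolar RNA (snoRNA) host genes were followed in single mouse embryos. The 7 members, taken by name from the 53379 gene rows of the table, are Gas5, Snhg1, Snhg3, Snhg5, Snhg6, Snhg8 and Snhg12. All 7 had an FPKM (gene counts scaled by exon length and library size) that reached 1 in at least 2 of 19 libraries, a condition met by 18410 genes, which are the genes tested.

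All embryos were of the B6D2F1 strain, were made by in vitro fertilisation, grew in the embryo medium KSOM and were sampled singly as morulae or blastocysts 96 hours after insemination. Parents of the Alyref cross were both Alyref+/-, and parents of the Gabpb1 cross were both Gabpb1+/-. Alyref encodes an adaptor for mRNA export from the nucleus. Gabpb1 encodes the beta chain of GABP, an ETS-family transcription factor. From the Alyref cross came 2 Alyref KO (-/-) morulae, and 3 morulae and 3 blastocysts that were non-KO, meaning WT or heterozygous. From the Gabpb1 cross came 3 morulae labelled Gabpb1 KO (-/-), with 2 morulae and 3 blastocysts that were non-KO. Another 3 blastocysts had WT parents, and no blastocyst was labelled KO. The genotype was read by the submitters from missing reads over the deleted region of the same libraries. The labels do not say which embryos shared a fertilisation, so a cross cannot be told apart from a batch.

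Each library held between 7486125 and 31536282 gene counts. In CPM (gene counts scaled to a common library size), Alyref stood at 47.8 and 58.5 in the Alyref KO morulae and at 161 to 301 in the other 17 embryos. Gabpb1 stood at 78.2, 259 and 151 CPM in the morulae labelled Gabpb1 KO and at 93.8 and 83.3 CPM in its cross's non-KO morulae. Thus 1 labelled KO embryo lay below both non-KO embryos and the other 2 above them, and a count over the whole gene does not test the deleted region. Markers of cumulus cells, which surround the oocyte, were at or near 0, with a highest group mean over 5 markers of 0.192 CPM (Ptx3), and none passed the filter. Of 4 oocyte markers only Zp3 passed the filter, with group means of 0.365 to 4.30 CPM, and it was not called under either KO label. Gdf9 had 1.02 to 1.77 CPM in morulae labelled Gabpb1 KO and 0.213 and 0.761 CPM in their non-KO morulae. Group means there were 0.326 and 0.0380 CPM for Bmp15 and 0.405 and 0 CPM for Oosp1. As group means in Alyref KO and non-KO morulae Gdf9 had 1.82 and 0.715 CPM, Bmp15 0.561 and 0.534 CPM, Oosp1 0.100 and 0 CPM, and Zp3 2.82 and 4.30 CPM. The part of such transcripts in the host gene values was not tested.

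SnoRNAs are short nucleolar RNAs that guide chemical modification of ribosomal RNA. Box C/D snoRNAs direct ribose methylation and box H/ACA snoRNAs direct pseudouridylation. In mammals most of them lie in introns and are trimmed from the excised intron after splicing, so 1 transcription event yields a spliced host RNA and its snoRNAs. Many noncoding hosts begin with a terminal oligopyrimidine (TOP) tract, as ribosomal protein mRNAs do, and their spliced RNAs are substrates of nonsense-mediated decay, which removes RNAs with early stop codons when they are translated. Gas5 was named for its accumulation in growth-arrested cells. Preimplantation embryos start new ribosome production after the maternal supply declines.

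The table holds 29 snoRNA rows within the spans of the 7 hosts. Gas5 (1:161034422-161038539, plus strand, GRCm38) holds 10 of them, Snhg1 (19:8723475-8726443, plus) 8, and Snhg12 (4:132308678-132311024, plus) 5. Snhg3 (4:132348014-132353686, minus) holds Snora73a and Snora73b, known as U17 RNAs of ribosomal RNA processing. Snhg5 (9:88521050-88522929, minus) holds Snord50a and Snord50b. Snhg6 (1:9941959-9944118, minus) holds Snord87, and Snhg8 (3:123507552-123508404, minus) holds Snora24. The letters TGATGA or TGATGT (C box) followed by CTGA (D box) on the snoRNA's own strand, with no mismatch allowed, occur in 9 of the 10 rows of Gas5, in 6 of 8 of Snhg1, in both of Snhg5, in Snord87 and in 1 of 5 of Snhg12. The same letters also occur in both Snora73 rows, which are not box C/D RNAs. Snord80 and Snora16a are each annotated by a pair of rows, and 1 snoRNA row of Gas5 carries the name Mir5117. The 6 sequences below, from GRCm38 with GENCODE M21 coordinates, are examples of what the 3 hosts described most fully hold within their spans. They run 5′ to 3′ with the C and D boxes in capitals.
Gm22357, in Gas5, chr1:161036057-161036139, plus: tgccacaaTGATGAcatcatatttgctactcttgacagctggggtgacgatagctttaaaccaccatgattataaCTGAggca
Snord78, in Gas5, chr1:161036984-161037049, plus: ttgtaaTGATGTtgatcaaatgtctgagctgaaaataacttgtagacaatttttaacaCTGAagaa
Snord47, in Gas5, chr1:161038082-161038158, plus: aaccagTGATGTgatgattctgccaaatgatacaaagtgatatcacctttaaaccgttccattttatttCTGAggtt
Gm23246, in Snhg1, chr19:8725594-8725660, plus: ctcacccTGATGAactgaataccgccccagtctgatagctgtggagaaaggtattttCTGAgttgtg
Snord50a, in Snhg5, chr9:88521529-88521600, minus: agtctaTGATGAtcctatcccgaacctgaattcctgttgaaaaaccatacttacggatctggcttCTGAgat
Snord50b, in Snhg5, chr9:88521797-88521868, minus: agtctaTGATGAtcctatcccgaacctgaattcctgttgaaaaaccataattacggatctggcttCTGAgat

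Snord50a and Snord50b share 71 of 72 bases and differ by C50A, written as the base in Snord50a, the position from the 5′ end and the base in Snord50b. Reads shorter than the snoRNA can therefore fall on either copy, and their rows are uncertain.

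Per length, Gas5 was the most abundant host, with a mean over the 19 embryos of 89.1 FPKM, and 1291 of the tested genes had a higher mean. Snhg5 followed at 41.9 FPKM, then Snhg3 at 33.0, Snhg1 at 31.8 and Snhg6 at 29.6. Snhg8 had 9.44 FPKM and Snhg12 4.88. The exon lengths behind these values include retained introns: the exons of Snhg1 (2969 bases) and Snhg8 (853 bases) cover the whole gene, and those of Gas5 cover 3760 of 4118 bases. Intronic reads of those hosts are thus part of their counts. Across the embryos Gas5 varied most, 6.44-fold between the lowest (134 CPM) and the highest embryo (865 CPM), and Snhg6 least, 2.59-fold (19.5 to 50.6 CPM).

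**Figure D1:**
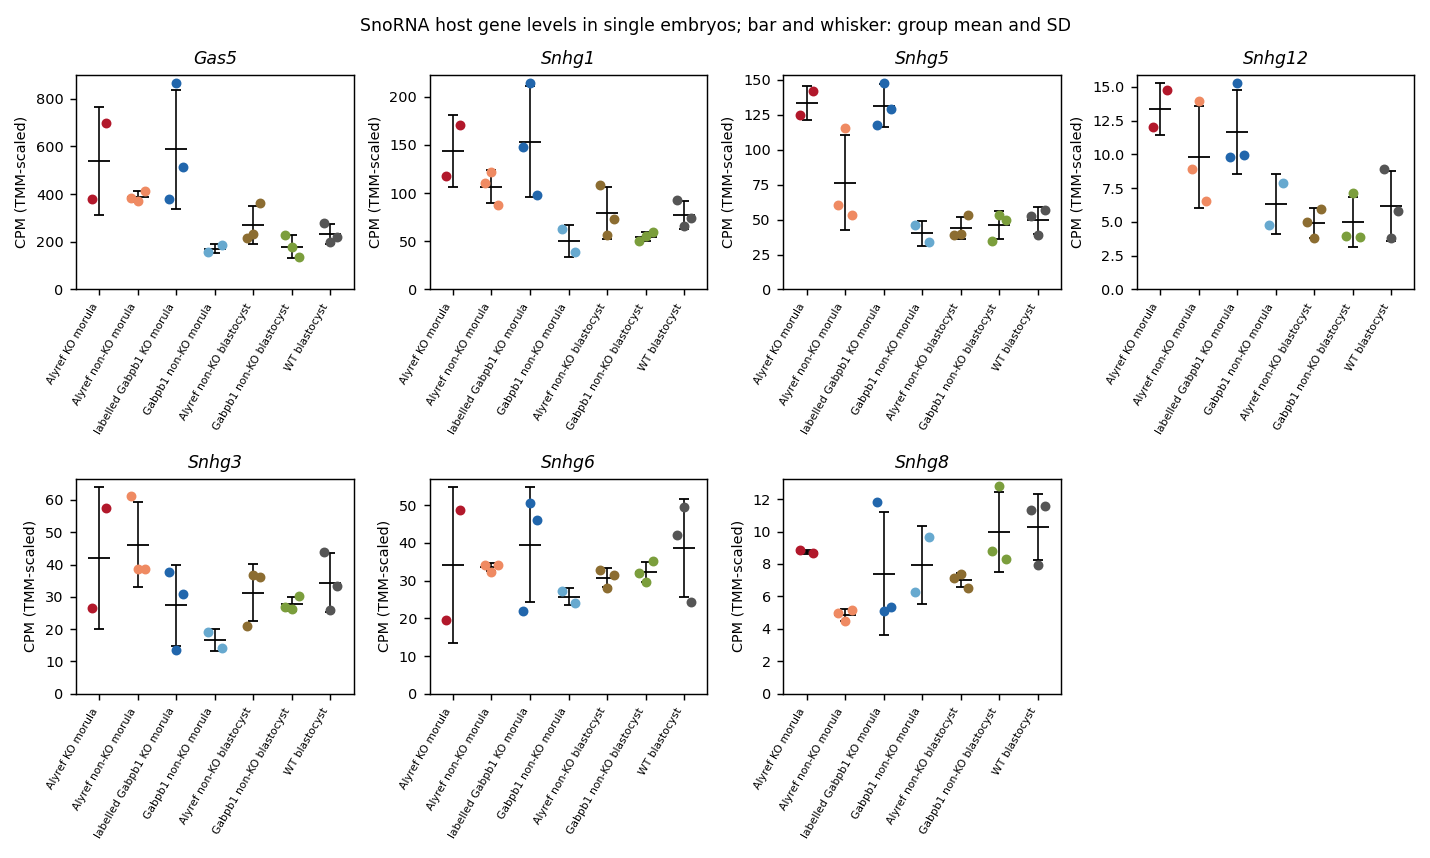
Level of each host in CPM (TMM-scaled), 1 point per embryo, by group, on a linear axis from 0; bar and whisker give the group mean and SD. In Gas5, Snhg1 and Snhg5 the 2 Gabpb1 cross non-KO morulae lie below all 3 morulae labelled Gabpb1 KO, while Snhg3, Snhg6 and Snhg8 are mixed.

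The level of Gas5 ordered the groups from morulae labelled Gabpb1 KO (587 ± 250 CPM, SD, n = 3) through Alyref KO morulae (539 ± 225 CPM, n = 2) and Alyref cross non-KO morulae (389 ± 21.9 CPM, n = 3) to the blastocysts and, last, Gabpb1 cross non-KO morulae (172 ± 18.6 CPM, n = 2). Of the 6 steps in that order, only the one from Alyref cross non-KO morulae to Alyref cross blastocysts had ranges that did not overlap. For Snhg5 the Alyref KO morulae (133 ± 12.1 CPM, n = 2) and the morulae labelled Gabpb1 KO (132 ± 15.3 CPM, n = 3) stood together, above the next group's range, and the remaining groups ran from 76.3 to 40.2 CPM with neighbours that overlapped. Snhg1 had the same first and last groups as Gas5, at 153 ± 58.0 CPM (n = 3) and 50.4 ± 16.7 CPM (n = 2). Snhg12 ran from 13.4 ± 1.93 CPM (n = 2) in Alyref KO morulae to 4.93 ± 1.10 CPM (n = 3) in Alyref cross blastocysts, with every pair of neighbours overlapping. Snhg8 had another order, highest in WT blastocysts (10.3 ± 2.03 CPM, n = 3) and lowest in Alyref cross non-KO morulae (4.88 ± 0.368 CPM, n = 3).

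Gas5, Snhg1 and Snhg5 rose in the morulae labelled Gabpb1 KO relative to the non-KO morulae of the same cross. They were 3 of 7 members called (adjusted p under 0.05, edgeR), all higher, where 1.65% of all tested genes were called and 0.348% were called higher. The median log2 fold change of the 7 members was 0.88, and that of all tested genes 0.06. The ranges of 4 members lay wholly above those of the non-KO embryos, as did those of 15.8% of all genes.

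Gas5, which harbours the largest number of the snoRNA rows, had 381, 865 and 515 CPM in the morulae labelled Gabpb1 KO and 159 and 185 CPM in the non-KO morulae. Its lowest labelled KO embryo was above both non-KO embryos, and the highest stood apart. The difference on the log2 scale was 1.77 (SE 0.37, adjusted p = 0.0290), or 3.42-fold.

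Snhg1, the host of Snord22 and 7 further snoRNA rows, had 148, 214 and 98.5 CPM against 62.3 and 38.6 CPM. The groups did not overlap, and the difference on the log2 scale was 1.60 (SE 0.35, adjusted p = 0.0368), or 3.04-fold. Snhg5, the host of the Snord50 pair printed above, had 118, 148 and 129 CPM against 46.5 and 33.8 CPM. Its labelled KO embryos were close together and well above both others, and the difference on the log2 scale was 1.71 (SE 0.33, adjusted p = 0.0199), or 3.28-fold.

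The other 4 members did not pass the test. Snhg12, which carries 4 H/ACA-named rows and Snord99, had 9.81, 15.3 and 9.93 CPM against 4.77 and 7.91 CPM, without overlap, and differed on the log2 scale by 0.88 (SE 0.44, adjusted p = 0.301). Snhg3 differed by 0.72 (SE 0.43, adjusted p = 0.386) and Snhg6 by 0.62 (SE 0.39, adjusted p = 0.401). Snhg8 had 11.8, 5.09 and 5.32 CPM against 6.26 and 9.66 CPM, so its groups overlapped, and differed by -0.11 (SE 0.36, adjusted p = 0.910).

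**Figure D2:**
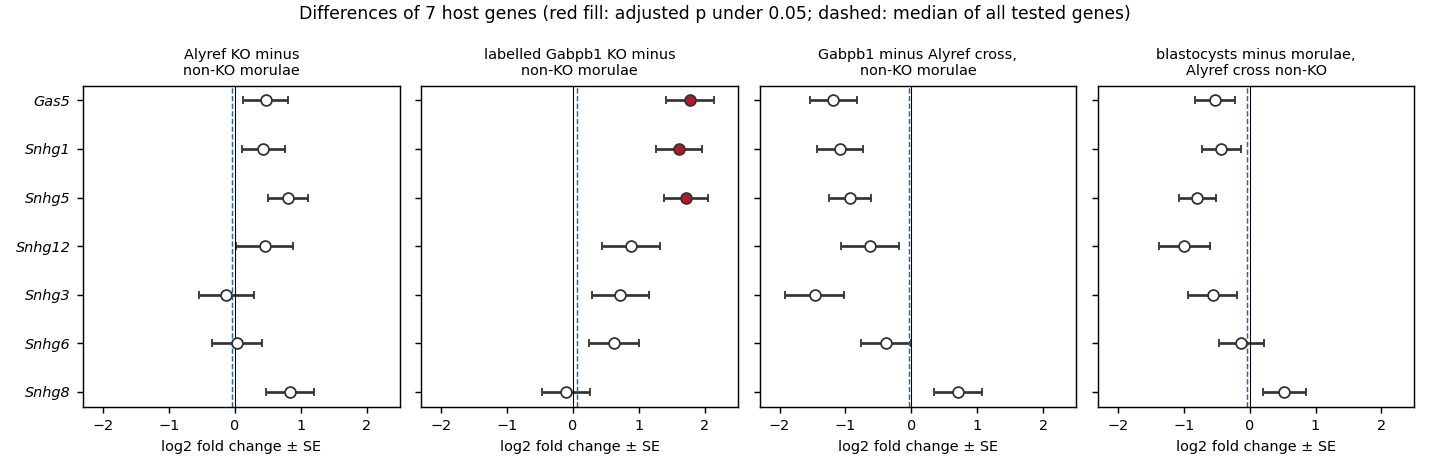
Log2 fold change with its standard error for the 7 hosts in 4 comparisons; red fill marks an adjusted p under 0.05 and the dashed line the median of all tested genes. Filled points appear for Gas5 (1.77), Snhg1 (1.60) and Snhg5 (1.71) in the labelled Gabpb1 KO comparison, and in none of the other 3 panels.

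These 3 calls rest on few embryos. The count fell to 0 without the second morula labelled Gabpb1 KO (865 CPM of Gas5), without either non-KO morula, or when the 5 embryos were fitted alone, where 0 of 18410 genes were called (2180 at an unadjusted p under 0.05). With counts scaled to the ERCC spike-in RNA, the count was also 0: the log2 fold changes were 1.04 for Gas5 (adjusted p = 0.601), 1.04 for Snhg1 (0.593) and 1.18 for Snhg5 (0.479), while the median of all tested genes moved from 0.06 to -0.40. Gene counts over spike-in counts, as a log2 ratio, were 7.63, 5.66 and 6.67 in the labelled KO morulae and 7.32 and 7.29 in the non-KO morulae.

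Markers of trophectoderm, the outer layer that forms as a morula becomes a blastocyst, differed between the same embryos. The summed level of the 7 markers Cdx2, Gata3, Krt8, Krt18, Tfap2c, Elf5 and Eomes was 1539, 156 and 544 FPKM in the morulae labelled Gabpb1 KO and 2522 and 1563 FPKM in the non-KO morulae. Most of it came from the keratins Krt8 and Krt18. Their group means were 246 and 438 FPKM in the labelled KO morulae and 719 and 1248 FPKM in the non-KO morulae. Tfap2c went the other way, with group means of 25.2 and 21.1 FPKM. In the fit, 6 of the 7 markers were below 0 and none was called (2 at an unadjusted p under 0.05), and none was at 0 in all embryos of a group. The part of these markers in the host gene difference was not tested. The labelled KO embryo with 1539 FPKM and the non-KO embryo with 1563 FPKM had nearly the same marker sum. They are 1 embryo of each group, picked for that sum, and cannot test that part. In those embryos Gas5 stood at 381 and 185 CPM, Snhg1 at 148 and 38.6 CPM, and Snhg5 at 118 and 33.8 CPM. The 5 epiblast markers were all above 0, with a median log2 fold change of 0.86, and 4 of 5 primitive endoderm markers were below 0, with a median of -2.11. None was called, and 2 of each list had an unadjusted p under 0.05, as did 18.9% of all tested genes. Of the primitive endoderm markers Gata6, the most abundant, went the other way and was higher. Its group means were 159 CPM in the labelled KO morulae and 93.4 CPM in the non-KO morulae. Summed over these 5 markers, the labelled KO morulae held 43.3 to 63.9 FPKM and the non-KO morulae 33.9 and 39.6 FPKM. Fewer cells of a type and less RNA per cell cannot be told apart in whole embryos.

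**Figure D3:**
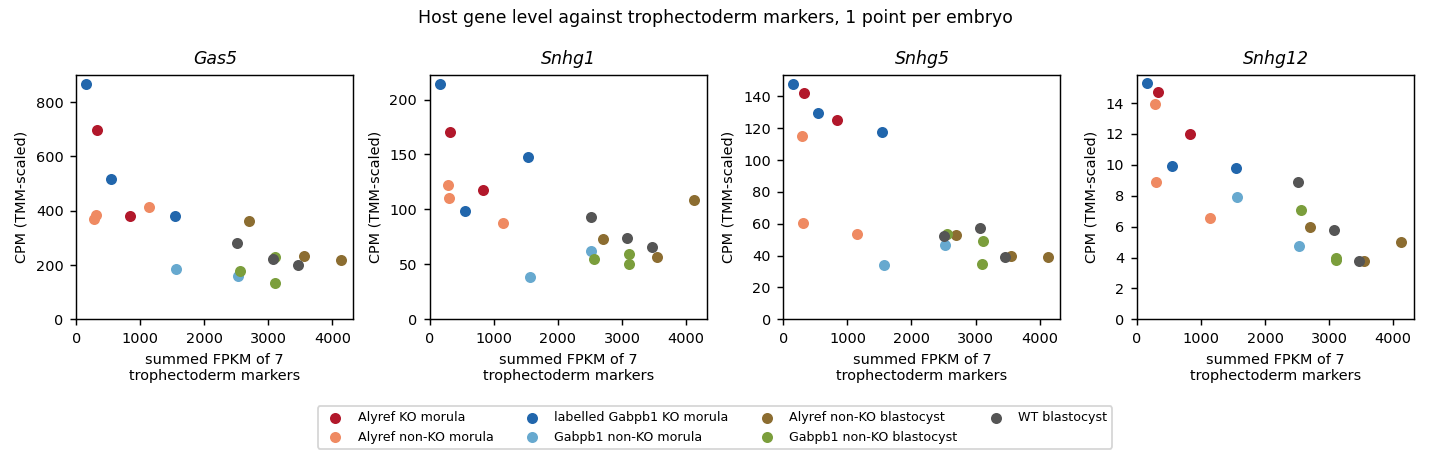
Level of 4 hosts in CPM against the summed FPKM of 7 trophectoderm markers, 1 point per embryo, coloured by group. Most of the sum comes from Krt8 and Krt18. The 9 blastocysts, with marker sums of 2514 to 4128 FPKM, hold at most 363 CPM of Gas5, and the embryo with the lowest sum (156 FPKM) holds the most Gas5 (865 CPM).

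In the Alyref KO morulae none of the 7 hosts was called, where 0.228% of all tested genes were. An unadjusted p under 0.05 was found for 2 members and for 12.1% of all tested genes. DESeq2 and limma also called none. Snhg5 had 125 and 142 CPM in the KO morulae and 60.4, 115 and 53.4 CPM in the non-KO morulae. Both KO embryos were above all non-KO embryos, and the difference on the log2 scale was 0.81 (SE 0.30, adjusted p = 0.282). Snhg8, host of Snora24, had 8.84 and 8.67 CPM against 4.99, 4.47 and 5.18 CPM, again without overlap, and differed on the log2 scale by 0.84 (SE 0.36, adjusted p = 0.358). Such separation upward was seen for 12.5% of all tested genes.

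Gas5 had 380 and 698 CPM in the Alyref KO morulae and 385, 370 and 413 CPM in the non-KO morulae, so 1 KO embryo lay within the non-KO range and the other above it (log2 fold change 0.47, SE 0.34, adjusted p = 0.639). Snhg1 had 117 and 170 CPM against 110, 122 and 87.9 CPM (0.43, SE 0.33, adjusted p = 0.659). The pair of KO embryos also differed in Snhg6 (19.5 and 48.7 CPM) and Snhg3 (26.5 and 57.6 CPM), with the same embryo higher in both.

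The effects under the 2 KO labels were compared directly. None of the 7 members was called in that test, where 0.907% of all tested genes were, and DESeq2 and limma called none. An unadjusted p under 0.05 was found for 2 members and for 16.8% of all tested genes. The Gabpb1 effect minus the Alyref effect was 1.31 on the log2 scale for Gas5 (SE 0.49, adjusted p = 0.202), 1.17 for Snhg1 (SE 0.48, adjusted p = 0.233) and 0.91 for Snhg5 (SE 0.44, adjusted p = 0.312). For Snhg8 it was -0.95 (SE 0.51, adjusted p = 0.368). With spike-in scaling the first 3 became 0.65, 0.57 and 0.18. Calls under one label and not under the other therefore do not show that the effects differed.

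The 2 sets of non-KO morulae were set side by side, since each serves as the reference of its cross. None of the members was called in Gabpb1 cross minus Alyref cross morulae, where 1.86% of all tested genes were. Of the members 4 had an unadjusted p under 0.05, as did 22.4% of all tested genes. Snhg3 had 19.1 and 14.2 CPM in the Gabpb1 cross and 61.2, 38.5 and 38.5 CPM in the Alyref cross (log2 fold change -1.47, SE 0.44, adjusted p = 0.0830). Gas5 differed by -1.18 (SE 0.36, adjusted p = 0.0830), Snhg1 by -1.08 (SE 0.34, adjusted p = 0.0977) and Snhg5 by -0.93 (SE 0.32, adjusted p = 0.118). Ranges lay wholly lower in the Gabpb1 cross for 5 members, as for 18.2% of all genes, and wholly higher for Snhg8 alone, as for 17.9%.

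DESeq2 called 3 members in this comparison (Gas5, Snhg1 and Snhg3), and leaving out the third Alyref cross non-KO morula also gave 3 (Snhg1, Snhg3 and Snhg5), while limma called none. With spike-in scaling, which moved the median of all tested genes from -0.03 to 0.39, the differences were -0.77 for Gas5 (adjusted p = 0.748), -0.56 for Snhg1 (0.837), -0.26 for Snhg5 (0.936) and -1.05 for Snhg3 (0.742). Snhg12 went from -0.62 to 0.0014, and Snhg6 from -0.39 to 0.04. Trophectoderm markers summed to 2522 and 1563 FPKM in the Gabpb1 cross and to 302, 284 and 1142 FPKM in the Alyref cross, with 6 of 7 markers above 0 and none called. Their part was not tested. This comparison and the labelled Gabpb1 KO comparison share the 2 Gabpb1 cross non-KO morulae.

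Between stages of the Alyref cross, 0 of 7 members were called, where 13% of all tested genes were. Of the members 2 had an unadjusted p under 0.05, as did 31.1% of all tested genes. Ranges lay wholly lower in blastocysts for Gas5, Snhg3, Snhg5 and Snhg12, as for 19.2% of all genes, and wholly higher for Snhg8, as for 19.6%. Snhg12 had 5.03, 3.78 and 5.98 CPM in blastocysts and 8.90, 13.9 and 6.54 CPM in non-KO morulae (log2 fold change -0.99, SE 0.39, adjusted p = 0.100). Snhg5 had 39.2, 39.8 and 53.0 CPM against 60.4, 115 and 53.4 CPM (-0.79, SE 0.28, adjusted p = 0.0672). The highest blastocyst and the lowest morula were nearly equal in Snhg5. DESeq2 called Snhg5, and without the third non-KO morula both Snhg5 and Snhg12 were called, while limma called none.

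In the Gabpb1 cross neither the members nor any other gene was called between stages (background 0%), with 0 members and 1237 genes at an unadjusted p under 0.05. Gas5 had 228, 176 and 134 CPM in those blastocysts and 159 and 185 CPM in the morulae, and differed on the log2 scale by 0.06 (SE 0.34, adjusted p = 0.995). Ranges lay wholly higher in these blastocysts for Snhg3 and Snhg6, as for 11.4% of all genes. With spike-in scaling, where the median of all tested genes was -0.86, all 7 hosts were below 0 in this comparison (Gas5 -0.74, adjusted p = 0.454). The stage effects of the 2 crosses were tested against each other after their values had been seen. In that test 0 members were called (edgeR), where 0.00543% of all tested genes were. An unadjusted p under 0.05 was found for 13.8% of all tested genes and for 2 members: Snhg3 (1.30, SE 0.57, adjusted p = 0.337) and Snhg5 (0.99, SE 0.42, adjusted p = 0.329). Blastocysts from either heterozygous cross also gave 0 calls among members against WT blastocysts (background 0% in both), with 0 members at an unadjusted p under 0.05 in each. WT blastocysts had 280, 198 and 222 CPM of Gas5 and 52.4, 38.9 and 57.2 CPM of Snhg5, values within or near the ranges of the other blastocysts. DESeq2 and limma called no member in the stage comparison of the Gabpb1 cross or in either comparison with WT.

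Over the 19 embryos Gas5, Snhg1, Snhg5 and Snhg12 followed each other, with Pearson r of log2(CPM + 1) from 0.76 to 0.86 for their 6 pairs. Snhg3, Snhg6 and Snhg8 gave r from -0.43 to 0.39 in every pair that included one of them. The embryos share groups and depth, so these values are descriptions. Among 8358 tested genes with a mean of at least 5 FPKM, the 5 most like the mean profile of the 7 hosts were Gm13487 (r = 0.93), Taf1d (0.93), Zfas1 (0.93), Rps25 (0.92) and Gm15198 (0.89). Taf1d, which encodes a subunit of the RNA polymerase I selectivity factor, and the noncoding Zfas1 are themselves snoRNA hosts. Rps25 encodes a small-subunit ribosomal protein, and Gm13487 and Gm15198 are annotated as processed pseudogenes, whose reads may come from a parent gene.

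**Figure D4:**
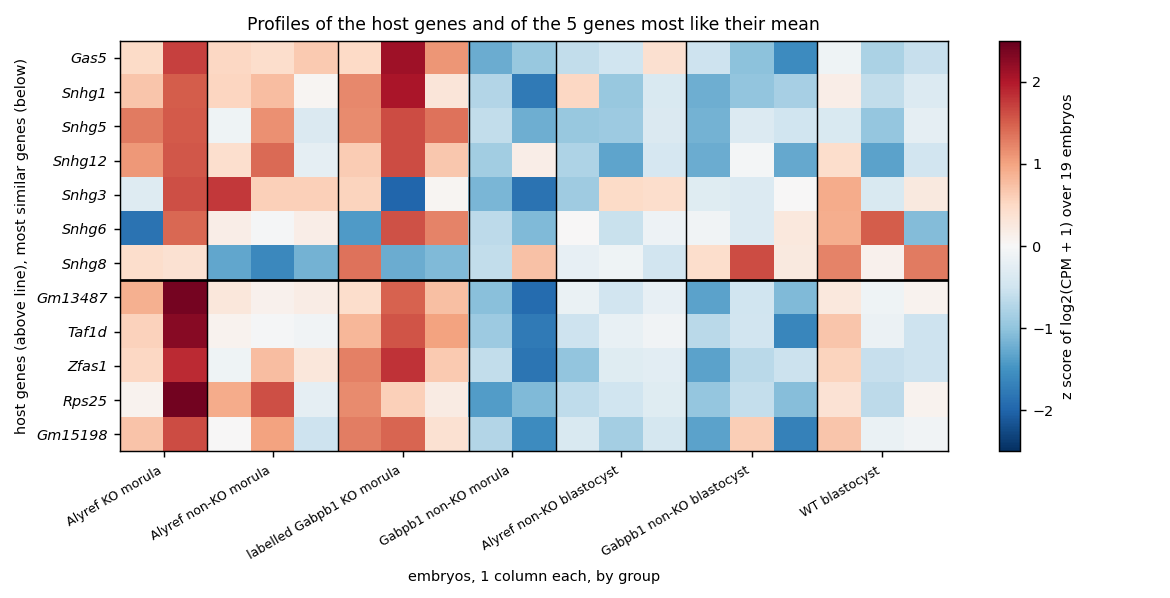
Heat map of z scores of log2(CPM + 1), 1 column per embryo grouped by label, for the 7 hosts (above the line) and the 5 genes most like their mean (below). Gas5, Snhg1, Snhg5 and Snhg12 have their highest embryo in the second morula labelled Gabpb1 KO and vary alike (r from 0.76 to 0.86), while pairs with Snhg3, Snhg6 or Snhg8 reach at most 0.39.

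Single hosts had other closest genes. Snhg5 was most like AA623943 (r = 0.90) and Zfas1 (0.89), Snhg1 most like Zfas1 (0.89), Gas5 most like Zmat5 (0.90), and Snhg12 most like Rbm8a2 (0.93), a copy of the exon junction gene Rbm8a. Snhg6 reached r = 0.75 with Eif3j2 and Snhg8 r = 0.80 with Pdgfa. Snhg3 had r = 1.00 to 2 decimals (0.996) with Gm17300, a lincRNA that overlaps it on the opposite strand.

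Overlap with other genes limits 3 of the hosts. Gm17300 (4:132351772-132353382, plus) held 164 to 1213 counts per embryo and Snhg3 145 to 1128. The strand setting of the counting is not given in the sources used here, so their reads cannot be told apart. Rcc1, on the same strand as Snhg3, also overlaps it, and differed by 0.26 (SE 0.37, adjusted p = 0.741) under the Gabpb1 KO label. Zbtb37 overlaps the start of Gas5 on the opposite strand, with group means of 3.79 to 10.8 CPM, and Mcmdc2 overlaps Snhg6, with 4.02 to 7.61 CPM. Of 2 rows that annotate Snord80 on almost the same bases, 13 of 19 embryos held the same count in both, so reads over overlapping rows can count for each.

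A neighbour of Snhg1 moved in the other KO comparison. Slc3a2, which encodes the heavy chain of amino acid transporters, lies 105 bases from Snhg1 and is transcribed away from it. It had 376 and 306 CPM in Alyref KO morulae and 181, 156 and 169 CPM in non-KO morulae, and rose by 1.02 on the log2 scale (SE 0.20, adjusted p = 0.0490), just within the threshold. That call ended with spike-in scaling, with the compared groups alone, and without the second Alyref KO or the first non-KO morula, where 0 genes were called. Under the Gabpb1 KO label, where Snhg1 was called, Slc3a2 differed by 0.38 (SE 0.20, adjusted p = 0.323). Trnau1ap, 738 bases from Snhg12, differed by -0.66 (SE 0.24, adjusted p = 0.152) under the Gabpb1 KO label and by 0.65 (SE 0.24, adjusted p = 0.263) in Alyref KO morulae.

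Promoters of the hosts share features that the choice of members did not use. RefSeq windows of GRCm38.p6 were found for 6 of the 7 hosts (Snhg6 is named only). The 100 bases printed run from 50 before to 50 after the transcription start, 5′ to 3′ on the host's strand. Capitals mark TATA (with the next bases where it repeats) and the longest run of C and T near the start, and in Snhg3 the letters CTTCCGG.
Gas5, chr1:161035116-161035215, plus: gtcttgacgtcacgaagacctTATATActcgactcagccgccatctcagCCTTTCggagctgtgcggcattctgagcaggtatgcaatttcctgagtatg
Snhg1, chr19:8723437-8723536, plus: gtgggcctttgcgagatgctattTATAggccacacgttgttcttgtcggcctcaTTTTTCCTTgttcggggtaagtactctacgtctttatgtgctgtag
Snhg5, chr9:88522848-88522947, minus: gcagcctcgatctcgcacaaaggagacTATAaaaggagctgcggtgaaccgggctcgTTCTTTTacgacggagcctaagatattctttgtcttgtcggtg
Snhg12, chr4:132308628-132308727, plus: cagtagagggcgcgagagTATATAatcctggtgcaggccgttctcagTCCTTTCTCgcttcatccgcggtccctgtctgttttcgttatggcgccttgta
Snhg8, chr3:123508287-123508386, minus: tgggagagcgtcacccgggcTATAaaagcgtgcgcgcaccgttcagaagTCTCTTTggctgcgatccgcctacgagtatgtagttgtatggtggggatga
Snhg3, chr4:132353637-132353736, minus: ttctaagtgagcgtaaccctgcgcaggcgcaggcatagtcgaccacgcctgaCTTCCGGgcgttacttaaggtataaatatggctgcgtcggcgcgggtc

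TATA on the host's strand, beginning 40 to 20 bases before the start, occurred in 5 of 6 hosts: at 29 bases in Gas5, 27 in Snhg1, 23 in Snhg5, 30 in Snhg8 and 32 in Snhg12. Of all 32851 RefSeq promoter windows 5.81% held it there. In Snhg3 these letters stand only after the annotated start. A run of at least 5 bases of C and T was sought that overlapped the span from 5 bases before to 15 after the start. Such a run, which could begin before that span, was present in 6 of 6 hosts and in 44.1% of all windows. CTTCCGG or its reverse complement CCGGAAG, which holds the GGAA core of ETS factors such as GABP, was in the 300-base window of 1 of 6 hosts, Snhg3, and in 8.86% of all windows, and in Snhg3 it overlaps the run of C and T. Gas5 has another annotated start, which lacks both TATA at that distance and such a run, and the one that holds them is printed. Counted per window, TATA occurred in 5 of 7 and the run in 6 of 7. The motifs were chosen after the sequences had been seen, a match does not show a bound site, and Snhg8 and Snhg12 have the same features without a call.

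Reads on the snoRNA rows themselves were few, and the libraries were made from polyA RNA. None of the 27 tested rows was called under either KO label (edgeR). At an unadjusted p under 0.05 there were 5 of 27 under the Gabpb1 label, where 18.9% of all tested genes were. Under the Alyref label there were 0 of 27, where 12.1% of all tested genes were. The 5 include both rows of Snord80, which lie on almost the same bases. All 10 rows of Gas5 were above 0 in the labelled Gabpb1 KO comparison, with a median log2 fold change of 0.99 and a smallest adjusted p of 0.173. Of the 8 rows of Snhg1, 5 were above 0, with a median of 0.38. Snord50a differed by 0.95 (SE 0.62, adjusted p = 0.427) and Snord50b by 0.99 (SE 0.55, adjusted p = 0.347).

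As a share of the counts on Gas5 and its snoRNA rows, the snoRNA rows made up 6.45%, 2.75% and 4.37% in the morulae labelled Gabpb1 KO and 6.74% and 7.01% in the non-KO morulae. The counts of the host are in the denominator, and a read over overlapping rows can count for each, so these percentages describe the rows and not the RNAs. The snoRNA rows of Gas5 summed to 23.5 to 26.3 CPM in the labelled KO morulae and to 11.5 and 13.9 CPM in the non-KO morulae. For Snhg5 the shares were 2.36%, 0.560% and 0.870% against 1.66% and 2.41%, and the ranges overlapped. In WT blastocysts the share for Snhg5 was 4.28%, 4.10% and 2.96%, above the 0.735% and 0.931% of Alyref KO morulae. Those groups differ in stage, cross and genotype, and the Alyref KO shares rest on 7 and 20 snoRNA counts. Snhg5 itself, in the denominator, had group means of 49.5 CPM in WT blastocysts and 133 CPM in Alyref KO morulae. A read within a snoRNA row can come from the snoRNA, from unspliced host RNA or from a retained intron, which cannot be told apart here.

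**Figure D5:**
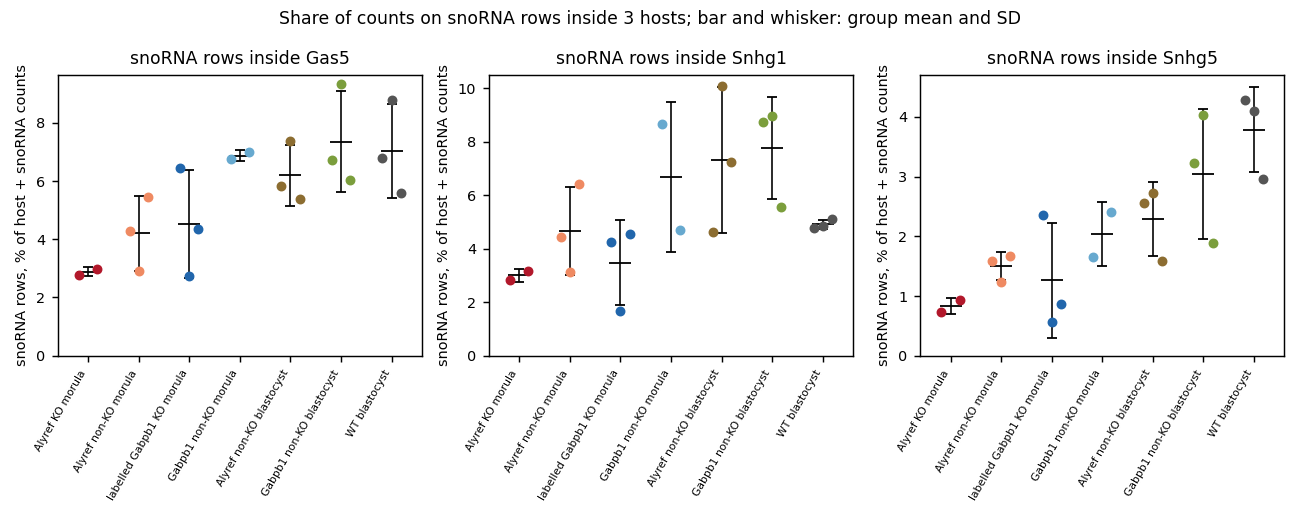
Counts on snoRNA rows as a percentage of the counts on the host and its snoRNA rows, 1 point per embryo by group, for Gas5, Snhg1 and Snhg5; bar and whisker give the group mean and SD. For Gas5 the Gabpb1 cross non-KO morulae (6.74% and 7.01%) lie above the 3 morulae labelled Gabpb1 KO (2.75% to 6.45%). The counts of Gas5, itself higher in the labelled KO morulae, are in the denominator. Its snoRNA rows summed to 23.5 to 26.3 CPM in those morulae and to 11.5 and 13.9 CPM in the non-KO morulae.

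Other genes of the same pathways were read from lists that were chosen with earlier results of these data known. Under the Gabpb1 KO label, 1.65% of all tested genes were called and 0.348% were called higher. Of 14 further noncoding hosts that could be tested, 1 was called: Zfas1 had 72.5, 86.7 and 59.2 CPM against 38.9 and 26.1 CPM and rose by 1.16 (SE 0.28, adjusted p = 0.0468). The median of these 14 was 0.69, against 0.06 for all genes, and 11 were above 0. Among 19 protein-coding hosts outside the ribosome, 1 was called, Taf1d, with 168, 221 and 180 CPM against 88.6 and 64.0 CPM (1.31, SE 0.28, adjusted p = 0.0346). Among 20 genes of snoRNP (snoRNA-protein particle) structure and assembly, 1 was called, Nhp2, a core protein of H/ACA particles, with 578, 870 and 742 CPM against 325 and 344 CPM (1.13, SE 0.24, adjusted p = 0.0345). The calls of Zfas1, Taf1d and Nhp2 ended with spike-in scaling, with the compared groups alone and without the second non-KO morula, where 0 genes were called higher.

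Ribosome genes gave no call under the Gabpb1 KO label, where 18.9% of all tested genes had an unadjusted p under 0.05. Of 82 cytosolic ribosomal protein genes 0 were called (19 at an unadjusted p under 0.05), 73 were above 0, and the median was 0.27. Of the 21 ribosomal protein genes listed as snoRNA hosts 0 were called (4 unadjusted), with a median of 0.25. Of 20 ribosome biogenesis genes 0 were called (8 unadjusted), with a median of 0.53. Of 15 nonsense-mediated decay factors 0 were called (4 unadjusted), with a median of 0.42, and of 8 regulators of TOP mRNAs and growth 0 were called (1 unadjusted), with a median of -0.16. In Alyref KO morulae 0 genes of any of these lists were called, and the medians ran from 0.21 in noncoding hosts to -0.16 in decay factors. Dkc1, the pseudouridine synthase of H/ACA particles and itself a host, was called in the test of the 2 effects against each other (1.70, SE 0.36, adjusted p = 0.0383), a call that ended in the same 3 settings.

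Some genes of these lists fell from non-KO morulae to blastocysts in the Alyref cross, and most did not pass the test. Calls were made for 6 of 19 protein-coding hosts and 7 of 20 snoRNP genes, where 7.43% of all tested genes were called lower. Among noncoding hosts 1 of 14 was called, Snhg15 (-0.89, SE 0.28, adjusted p = 0.0478), a share near that background. With the compared groups fitted alone, the lower calls over all tested genes went from 1367 to 13. Among those called in the fit of all 19 embryos were Wdr43 (-1.70, SE 0.30, adjusted p = 0.00773), a ribosome biogenesis factor, and Snu13 (-1.16, SE 0.22, adjusted p = 0.00780), a C/D core protein. Of the 82 ribosomal protein genes 10 fell and 75 were below 0. Of the 21 ribosomal protein genes listed as snoRNA hosts, 2 were called lower. Between crosses, in non-KO morulae, where 0.674% of all tested genes were called lower, Wdr43 (-1.82), Rack1 (-0.78), Nhp2 (-1.27) and Snu13 (-1.02) were also called lower in the Gabpb1 cross, as was Npm1 (-1.33), the nucleolar protein nucleophosmin. These calls between crosses all ended with spike-in scaling, with the compared groups alone, and when replicate 1 or 2 of the Alyref cross or replicate 2 of the Gabpb1 cross was left out, where 0 genes were called lower. The 7 hosts had no call in these comparisons, as given above.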

How the data were processed

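The authors deposited 1 table of read counts per gene for 19 single embryos. Its name gives FPKM, but its values are whole numbers with unequal totals, so they were used as counts. Trimmomatic, Trim Galore, cutadapt, STAR, featureCounts and mm10 are named, per the submitters' processing notes. Versions, annotation and strand setting are not given in the sources used here. Spike-in (ERCC) rows stayed out of library sizes.

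FPKM was computed from counts and the deposited length for the filter, and CPM with TMM scaling. edgeR 4.0.16 (R 4.3.3) fitted 1 mean per group to all 19 embryos by quasi-likelihood. P-values were adjusted by Benjamini-Hochberg over 18410 genes. SE is the log2 fold change over the square root of F. limma 3.58.1 on log2(FPKM + 1), DESeq2 1.42.0, other scalings and filters, and leaving out embryos were alternatives. The test was also run on simulated data.

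Genes named are the 7 hosts, overlapping genes and genes within 5 kb, the 3 most like each host, the 5 most like their mean, and called genes of the lists (at most 4 per list). Members and lists were chosen with earlier results of these data known. Embryos are 2 or 3 per group, 16 PCR cycles preceded sequencing, and no molecular identifiers were used, so counts carry amplification noise.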

Additional observations from a re-analysis of the deposited data

Results flagged for a closer look

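Snhg3 differed between stages in opposite directions in the 2 crosses with the TMM-scaled values, and neither stage difference passed the test. In the Alyref cross all 3 non-KO blastocysts (21.1, 36.6 and 36.0 CPM) were below all 3 non-KO morulae (61.2, 38.5 and 38.5 CPM), and the difference on the log2 scale was -0.56 (SE 0.38, adjusted p = 0.321). In the Gabpb1 cross all 3 blastocysts (26.8, 26.3 and 30.3 CPM) were above both morulae (19.1 and 14.2 CPM), and the difference was 0.74 (SE 0.43, adjusted p = 0.793). The difference between the 2 stage effects was 1.30 (SE 0.57, edgeR adjusted p = 0.337), so it did not pass the test, which was added after the values had been seen. In that test 0.00543% of all genes were called. Ranges lay wholly lower in blastocysts of the Alyref cross for 19.2% of all tested genes. They lay wholly higher in blastocysts of the Gabpb1 cross for 11.4%. The share of genes with both was not computed. In the Alyref cross the highest blastocyst (36.6 CPM) and the lowest morula (38.5 CPM) were close. With spike-in scaling both stage differences were below 0, at -0.85 in the Alyref cross (adjusted p = 0.633) and -0.17 in the Gabpb1 cross (adjusted p = 0.889), where the medians of all tested genes were -0.34 and -0.86. Reads of Snhg3 cannot be told from those of Gm17300, which overlaps it.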

How the results depend on the processing

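Of 840 single-member values under alternatives, 772 kept direction and side of the threshold, 16 lost a call, 9 gained one, 43 changed sign with no call in either setting (14 under spike-in scaling, 25 with an embryo left out), and 0 reversed a call. The 3 host calls under the Gabpb1 KO label became 0 with the compared groups alone and 0 with spike-in (ERCC) scaling, and ranged from 0 to 3 with an embryo left out. They stayed at 3 with DESeq2, limma, RLE scaling, other filters and the replicate block. Leaving out the third labelled KO morula lost Gas5. In the stage comparison of the Alyref cross, DESeq2 gave 1 call in place of 0, and leaving out an embryo 0 to 2. Between non-KO morulae of the crosses, DESeq2 gave 3 and leaving out an embryo 0 to 3. Other counts of host calls stayed at 0. The causes were not tested.

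Counts over all genes moved more. Over the other settings they ran from 0 to 490 (42 as reported) for Alyref KO, 0 to 1265 (303) for Gabpb1 KO, 24 to 3739 (2402) for stage in the Alyref cross, 0 to 51 (0) in the Gabpb1 cross, 0 to 15 (0) and 0 to 39 (0) against WT, 0 to 1694 (342) between crosses and 0 to 894 (167) for the difference of effects. With an embryo left out they ran from 0 to 128, 48 to 966, 346 to 4560, 0 to 6, 0 to 1, 0 to 1, 0 to 2435 and 16 to 707 in the same order. Spike-in scaling also moved the split of higher and lower calls: 0 and 26 for Gabpb1 KO (64 and 239 as reported), 31 and 321 for stage in the Alyref cross (1035 and 1367), 2 and 0 between crosses (218 and 124) and 0 and 10 for the difference of effects (66 and 101).

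Deviations from group means correlated little between embryos with the same replicate number (from -0.16 to 0.17). Such values cannot tell whether those embryos shared a fertilisation. The replicate block changed no count of host calls (3 in the Gabpb1 KO comparison, 0 elsewhere). With 2 or 3 embryos per group small differences are out of reach. Snhg8 and Snhg12, at 48 to 222 counts per embryo, carry the most counting error.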
